A study of Mus musculus with 42 samples.

Results

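Transcripts of growth hormone (Gh), a hormone of the anterior pituitary, were present at 15 CPM or more in 7 of 42 mouse brain libraries and under 1 CPM in 26, with 9 libraries in between. The 7 and the 26 were chosen by that level, which is in CPM, a gene's count scaled by the library's total count, without regard to the label of the library. The differences in Gh and in every other gene between these 2 sets of libraries are therefore given as a description, with no test. Tests were run only on the labels, which the choice did not use, and on how the hormone genes varied among the 7 libraries.

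The study profiled brain RNA of mice fed a control chow (11% fat) or a high-fat western chow (42% fat) over 12 weeks, with or without NaKtide, a peptide that blocks signalling through the Na,K-ATPase. NaKtide was a transgene switched on by doxycycline in the chow, at 300 mg/kg. The labels do not say which promoter or cell type carried the transgene, whether the mice without NaKtide received doxycycline or carried the transgene, or the age and strain of any mouse. Polyadenylated RNA libraries are labelled cerebellum or hippocampus, and each combination of region, diet and NaKtide has 5 libraries, except that hippocampus control without NaKtide and hippocampus western with NaKtide have 6 each. Libraries are named here by region label, diet, NaKtide and replicate number. Nothing in the labels ties a library to one animal, so the tests below measure the spread between libraries, which may be technical.

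The anterior pituitary lies in the skull base beneath the hypothalamus and is made of cell types that each secrete one kind of hormone. Somatotrophs make growth hormone, lactotrophs make prolactin (Prl), corticotrophs make the precursor Pomc, and thyrotrophs and gonadotrophs make the shared alpha subunit Cga with the beta subunit Tshb, or Lhb and Fshb. The POU-domain factor POU1F1 switches on Gh, Prl and Tshb, and Pomc is also made by neurons of the hypothalamic arcuate nucleus.

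Gh (chromosome 11, 106300271 to 106301865 in GRCm38) was highest in hippocampus control NaKtide 4 at 447 CPM and in hippocampus control NaKtide 3 at 388 CPM. The cerebellum control libraries 1, 4, 2 and 3 had 184, 64.7, 38.9 and 17.8 CPM, and cerebellum control NaKtide 1 had 21.4 CPM. In raw counts the 7 libraries held 106 to 2088 Gh reads. The 26 libraries at the low end ranged from 0 to 0.942 CPM with a median of 0.270, or 0 to 7 reads. No gap in the levels marked the boundary: below the 17.8 CPM of cerebellum control 3 came hippocampus control NaKtide 2 at 12.0 CPM, hippocampus control NaKtide 1 at 7.16 and hippocampus western NaKtide 2 at 5.91. At the lower boundary, cerebellum western NaKtide 3 had 1.23 CPM and hippocampus control 1 had 0.942. At least 1 Gh read was present in 38 of the 42 libraries. In bulk tissue, more cells of a type and more RNA per cell cannot be told apart.

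**Figure D1:**
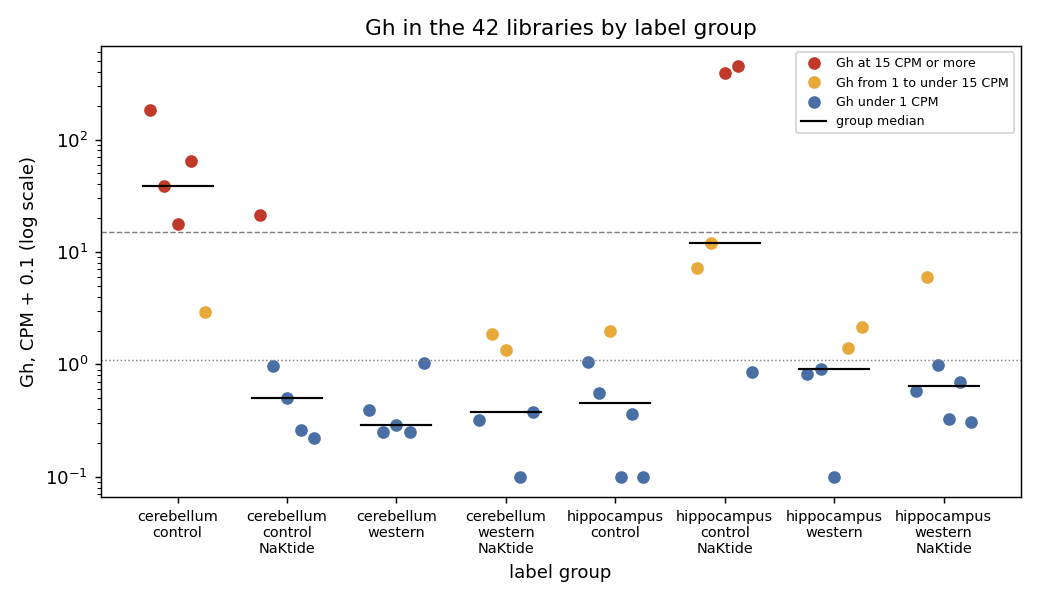
Gh level per library (CPM + 0.1, log scale, y axis) in the 8 label groups (x axis), with each library as a point coloured by its level and the group median as a black line. The 7 libraries at 15 CPM or more lie above the dashed line and carry control-diet labels, and the 26 under 1 CPM lie below the dotted line.

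Prl (chromosome 13, 27057570 to 27065205) went with Gh across the libraries. Its level in the order of falling Gh was 66.4, 43.6, 29.1, 10.9, 6.31, 4.46 and 2.35 CPM in the 7 libraries, which is the same order as for Gh. The 26 low libraries ranged from 0 to 0.801 CPM with a median of 0, and 11 of them held any Prl read. The 2 sets did not overlap.

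Among the 7 libraries, the correlation of Prl with Gh on the log2(CPM + 1) scale was r = 0.993 (exact permutation p = 0.000397, adjusted p = 0.00238 over 6 hormone genes, two-sided, n = 7). Spearman's rho was 1 (exact permutation p = 0.000397, adjusted p = 0.00238), the smallest p that 7 libraries allow. Without hippocampus control NaKtide 4 and 3, the libraries farthest from the median, r was 0.990 over 5 libraries, all of them labelled cerebellum. Leaving out any 1 of the 7 gave r from 0.991 to 0.996. No single label group held 6 such libraries, so the relation was not computed within groups.

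**Figure D2:**
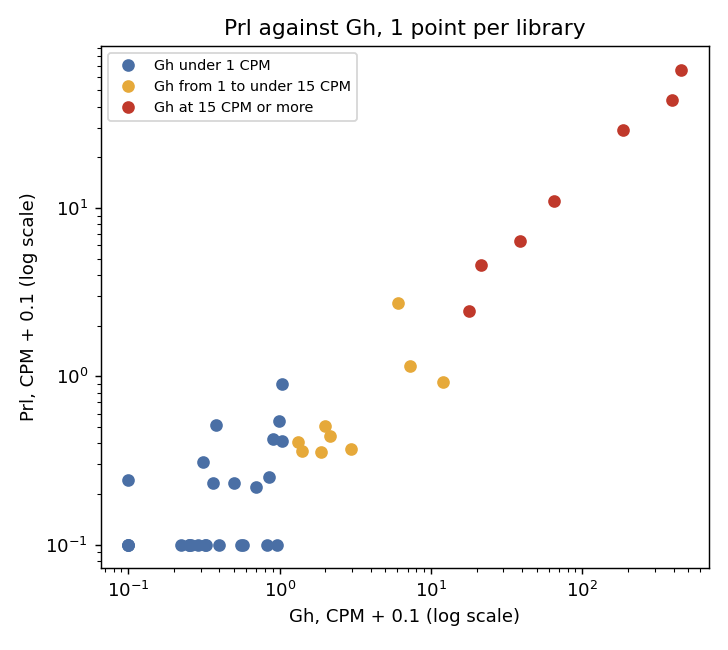
Prl (y axis) against Gh (x axis), both as CPM + 0.1 on log scales, with 1 point per library. In the 7 red libraries Prl runs from 2.35 to 66.4 CPM in the order of Gh, while blue libraries stay at or under 0.801 CPM.

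Compared per transcript length (FPKM, in which a gene's count is scaled by its length and by the library), Gh exceeded Prl in each of the 7 libraries. The Gh to Prl ratio was 11.0 in hippocampus control NaKtide 4 (95% exact counting interval 9.76 to 12.4) and 14.5 in hippocampus control NaKtide 3 (12.6 to 16.8), intervals that do not overlap. In the cerebellum-labelled libraries it was 10.3 in control 1, 9.66 in control 4, 10.1 in control 2, 7.85 in control NaKtide 1 (5.12 to 12.5) and 12.4 in control 3 (7.06 to 23.4). A range from 7.85 to 14.5 thus spanned libraries whose Gh level ranged from 17.8 to 447 CPM. The 9 libraries in between, summed, had a ratio of 9.36 (6.70 to 13.4), and the 26 low libraries, summed, had 5.04 (3.11 to 8.46) from 71 Gh and 23 Prl reads. Hippocampus western NaKtide 2, one of the 9, stood at 3.68 (1.99 to 7.09). These intervals cover counting error only. Libraries were chosen by Gh with no bound on Prl, so the choice itself can lower the ratio of the 26 and raise that of the 7.

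The promoter of Prl, which varied with Gh, is shown beside that of Pomc, a hormone gene of corticotrophs. No Gh promoter was available, and why Gh and Prl varied together was not tested. The sequences are the 250 bases before the RefSeq transcription start on GRCm38.p6, chr13:27057320-27057569 for Prl and chr12:3954695-3954944 for Pomc, both on the plus strand. Capitals mark ATGNATA, the core letters of POU1F1 sites, and TATAAA, on either strand.
Prl: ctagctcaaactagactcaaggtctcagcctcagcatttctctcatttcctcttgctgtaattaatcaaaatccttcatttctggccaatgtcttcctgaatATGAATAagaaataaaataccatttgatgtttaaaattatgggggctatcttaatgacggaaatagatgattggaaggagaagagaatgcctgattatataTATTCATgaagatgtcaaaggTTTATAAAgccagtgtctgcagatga
Pomc: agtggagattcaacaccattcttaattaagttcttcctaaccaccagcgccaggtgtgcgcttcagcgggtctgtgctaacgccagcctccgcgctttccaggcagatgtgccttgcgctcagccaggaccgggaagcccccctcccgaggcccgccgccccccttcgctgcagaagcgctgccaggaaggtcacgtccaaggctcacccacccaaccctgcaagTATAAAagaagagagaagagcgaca
The Prl window held ATGNATA starting 148 and 47 bases before the start site, and TATAAA at 26 and 24 bases, matches on opposite strands that overlap each other. The Pomc window held TATAAA 25 bases before the start and no match to the other motif, which was also absent from the windows of Cga, Tshb, Lhb and Fshb. Of 32851 promoters of the same length, 7.92% held ATGNATA and 12.4% held TATAAA, and a match describes the letters only.

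Pomc (chromosome 12, 3954951 to 3960642) was higher in 6 of the 7 libraries than in any of the 26 low ones, but in another order than Gh. It reached 95.05 CPM in cerebellum control 1 and 51.2 in cerebellum control 4, against 22.3 and 10.1 CPM in hippocampus control NaKtide 4 and 3, which had the most Gh. Cerebellum control 2 had 20.5, cerebellum control 3 had 6.87 and cerebellum control NaKtide 1 had 3.77 CPM, the last within the low range of 0.786 to 4.45 (median 2.26). The correlation with Gh was r = 0.43 (exact permutation p = 0.316, adjusted p = 0.379, n = 7; rho = 0.571, exact permutation p = 0.200, adjusted p = 0.200). Without hippocampus control NaKtide 4 and 3 it was r = 0.946 over the 5 cerebellum-labelled libraries, so the pooled value rests on those 2 libraries.

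The glycoprotein hormone genes were detected at low counts. Cga (chromosome 4, 34893779 to 34907370) had 41 reads (8.78 CPM) in hippocampus control NaKtide 4 and 18 reads (3.57 CPM) in hippocampus control NaKtide 3. The 5 cerebellum-labelled libraries held 0 to 2 Cga reads each, and all 26 low libraries held 0. Lhb, the beta subunit of luteinizing hormone, also had 41 reads (8.78 CPM) in hippocampus control NaKtide 4, while the other 6 libraries had 0 to 1.19 CPM, within the low range of 0 to 1.91. Fshb, the beta subunit of follicle-stimulating hormone, had 8 reads in hippocampus control NaKtide 4, 1 read each in hippocampus control NaKtide 3 and cerebellum control 1, and 0 elsewhere, including all 26 low libraries. Hippocampus control NaKtide 4 thus had the most reads of Cga, Lhb and Fshb alike. Tshb, the beta subunit of thyrotropin, ranged from 0.483 to 1.499 CPM in the 7 libraries and from 0.120 to 2.42 in the low ones, and so did not separate them.

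Of these 4 genes, only Fshb passed the adjusted threshold for a correlation with Gh (r = 0.712, exact permutation p = 0.00952, adjusted p = 0.0286; rho = 0.906, adjusted p = 0.0286), with at most 8 reads in a library. Its adjusted p was no longer under 0.05 when any of 6 of the 7 libraries was left out: it was 0.05 in 3 of these sets and 0.125 to 0.200 in the other 3. For Cga r was 0.789 (exact permutation adjusted p = 0.0738), and it was -0.139 without the 2 hippocampus-labelled libraries. For Lhb r was 0.746 (exact permutation adjusted p = 0.0532) and for Tshb 0.408 (exact permutation adjusted p = 0.394). A p above the threshold in 7 libraries does not show that these genes vary apart from Gh.

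**Figure D3:**
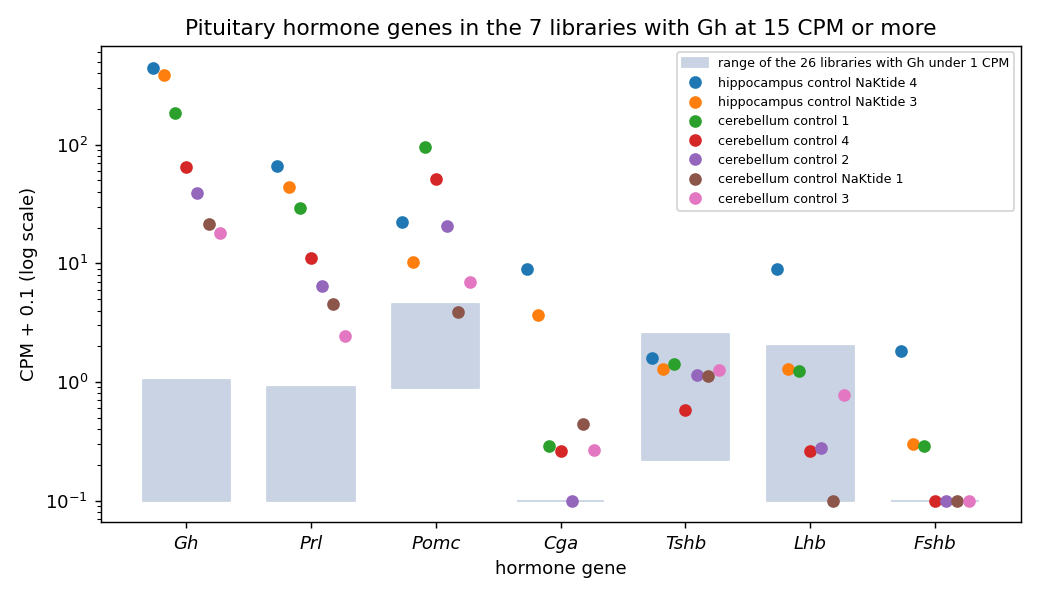
Level of the 7 pituitary hormone genes (CPM + 0.1, log scale) in each of the 7 libraries with Gh at 15 CPM or more, beside the range of the 26 libraries under 1 CPM (shaded). Gh and Prl lie wholly above the shaded range, 6 of 7 Pomc points do, and Tshb lies within it.

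Transcription factors that build the pituitary were at or near the detection limit. Pou1f1 had 2 reads in hippocampus control NaKtide 3 (0.396 CPM) and 0 in the other 6 libraries, and it reached 0.166 CPM at most elsewhere. Hesx1, an early pituitary factor, was at 0 in all 7. A count of 0 allows up to 3 reads. Tbx19, the corticotroph factor that acts on Pomc, reached 0.3802 CPM in cerebellum control 1, and Pitx1 reached 0.701 CPM in cerebellum control 2. Factors that brain tissue also uses had higher levels: Lhx4 had 5.25 CPM in cerebellum control 2, and Gata2 ranged from 1.07 to 12.96 CPM against 0.942 to 13.7 in the low libraries. Of the 15 factors, 7 passed the filter of 10 counts in 3 libraries, and none lay above all low libraries. Among the 4 receptors for releasing hormones, Trhr alone passed the filter and overlapped between the sets, Ghrhr had 1 read in each of 2 libraries, and Gnrhr had 3 reads in hippocampus control NaKtide 4.

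Secretory granule genes, which all peptide-secreting cells and neurons share, overlapped between the sets: none of 10 lay wholly above or below, and their median difference was -0.15 on the log2(CPM + 1) scale, against -0.09 over all genes. Chga, a granule matrix protein, had 204 to 511 CPM in the 7 libraries and 155 to 479 in the 26, and Pcsk1, the convertase that cleaves Pomc, 10.7 to 20.4 against 3.41 to 39.9. Of 13 genes of the growth hormone axis, 12 passed the filter and none separated the sets, with a median difference of -0.03. Ghrh, the hypothalamic releasing hormone for Gh, stood at 10.1 CPM in cerebellum control 4 and at 0.396 to 1.07 in the other 6. Igf1, a target of growth hormone, had 1.71 to 8.92 CPM in the 7 libraries and 0.840 to 8.20 in the low ones. Single members of this list differed in both directions, and 7 of the 13 had a higher median in the 7 libraries. Prlr (difference 1.26) lay above the low median in 7 of 7 libraries. Socs2 (-0.89), Igf1r (-0.75) and Jak2 (-0.43) did so in 0 of 7.

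Over 17814 genes with at least 10 counts in at least 3 libraries, 48 (0.269%) lay higher in every one of the 7 libraries than in every one of the 26, and 5 (0.0281%) lay lower in every one. These 48 include Gh, whose separation is set by the choice of libraries. They also include Prl, the only other one of the 26 genes on the lists of pituitary hormones, transcription factors and receptors. Among these 48, only Gh and Prl differed by more than 2 on the log2(CPM + 1) scale, by 5.99 and 3.72, and the next largest difference was 1.42. Of the 48, 31 are annotated as pseudogenes and 5 are ribosomal protein genes, whose reads can fall on near-identical copies, so single members are uncertain.

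Among the separating genes that are neither pseudogenes nor ribosomal, Mt1, a metal-binding metallothionein, ranged from 358 to 544 CPM in the 7 libraries and from 102 to 349 in the 26. Ndufc1, a subunit of respiratory complex I, had 90.2 to 139 CPM against 34.7 to 85.6. Pfdn2, a subunit of the prefoldin chaperone, had 196 to 326 CPM against 74.1 to 183. Smim4, a small mitochondrial membrane protein, and Mycbp, which binds the MYC protein, had 11.1 to 18.4 against 2.68 to 10.9 CPM and 10.5 to 12.7 against 3.70 to 10.3 CPM. These sets stood apart by narrow gaps, unlike those of Prl and of Gh, whose gap is set by the choice of libraries. The same uncertainty about copies applies to the ribosomal genes: Rps24 had 687 to 974 CPM against 244 to 659, and Rpl35a had 143 to 207 against 55.5 to 137.

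The 5 genes that were lower throughout were Map3k5, a stress-activated kinase (ASK1), at 7.18 to 16.1 against 17.2 to 41.3 CPM; Spsb3, at 2.28 to 4.19 against 4.58 to 13.5; and Rps6kb1, the S6 kinase, at 9.42 to 12.9 against 13.03 to 37.0. Washc5, a subunit of the endosomal WASH complex, had 11.9 to 18.1 against 19.98 to 38.9 CPM, and Zkscan3, a zinc finger repressor, 8.93 to 13.03 against 13.6 to 29.9. Their differences ran from -1.16 for Map3k5 to -0.57 for Zkscan3.

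**Figure D4:**
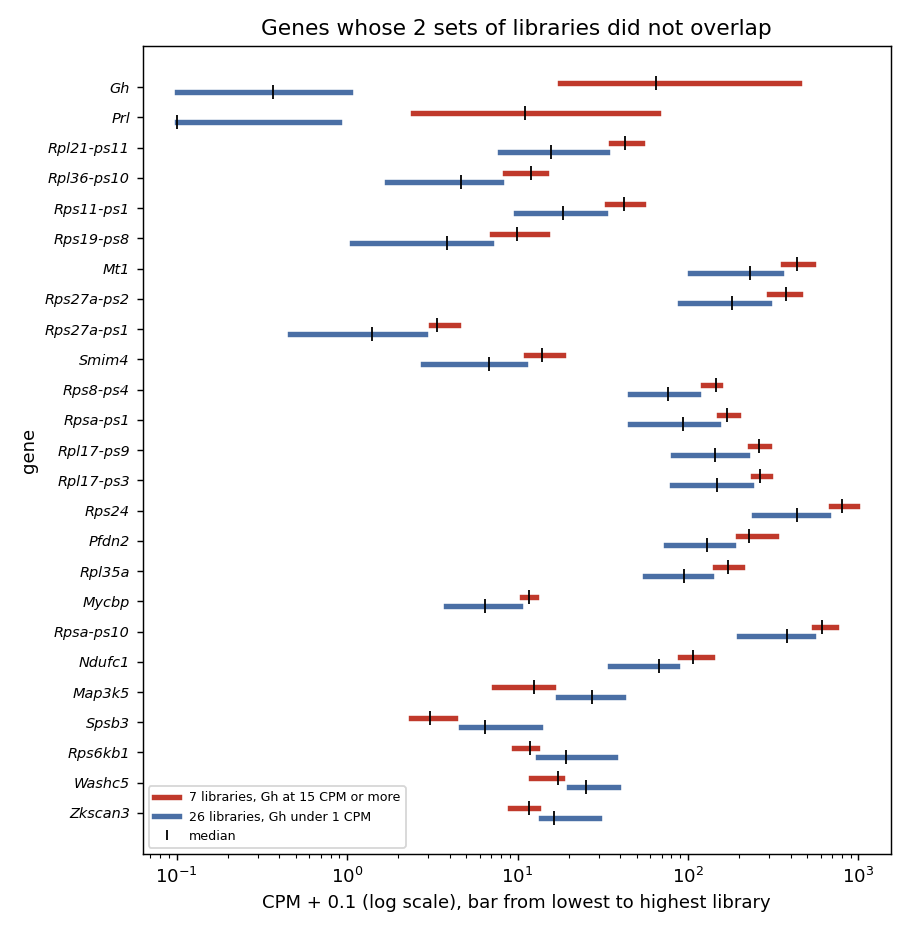
Range (bar) and median (tick) of the 7 libraries with Gh at 15 CPM or more (red) and the 26 under 1 CPM (blue), as CPM + 0.1 on a log scale, for 20 genes with every red library above every blue one and the 5 with every red library below. Prl and Gh, whose gap is set by the choice of libraries, are separated by wide gaps, and the other 23 by narrow ones.

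Ribosomal protein genes as a group, a set picked after their values were seen, were higher in the 7 libraries: 81 of 82 had a positive difference, with a median of 0.74 against -0.09 over all genes. Their share of all counts was 2.37 to 3.59% (median 2.93%) in the 7 libraries and 1.08 to 2.73% (median 1.81%) in the 26. Library depth and the mitochondrial share also differed at the median, with overlapping ranges. Totals were 4669374 to 6211201 counts (median 5709726) in the 7 and 5364756 to 9521002 (median 6927254.5) in the 26. Mitochondrial genes took 5.04 to 10.4% of counts (median 9.75%) in the 7 and 4.68 to 15.6% (median 6.22%) in the 26. Whether these play a part in the separating genes was not tested. With TMM scaling factors, which adjust for a few dominant genes, 34 genes lay above and 14 below in the same 7 and 26 libraries, and 1 ribosomal protein gene in place of 5 separated. The median difference of the ribosomal protein genes was not smaller with these factors, at 0.84 against -0.01 over all genes. When the Gh level that sets the low boundary was rescaled too, 25 libraries were low, and 48 genes lay above and 34 below.

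The number of separating genes depended on which libraries stood on each side. Since all 7 libraries had control-diet labels, the 10 low libraries on control diet were also taken alone: 110 genes then lay above, including all 48, and 279 below. The ribosomal protein median was then 0.71 against -0.09 over all genes. Without cerebellum control NaKtide 1, 178 genes lay above and 124 below, without cerebellum control 1 77 lay above, and without hippocampus control NaKtide 3 11 lay below.

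Several genes had large mean differences but overlapping sets, and they were carried by different libraries. Slc6a3, the dopamine transporter, differed by 2.84 on the log2(CPM + 1) scale with 148 CPM in cerebellum control 4, 92.8 in cerebellum control NaKtide 1 and 0 in hippocampus control NaKtide 3. Th, the first enzyme of dopamine synthesis, differed by 2.34, with 173 CPM in cerebellum control 4 and 6.21 in hippocampus control NaKtide 4. Sncg, gamma-synuclein, differed by 2.77 and ranged from 18.8 to 228 CPM against 2.43 to 94.1. Lower genes included the activity-induced Egr1 (difference -2.08, 8.76 to 108 against 24.8 to 453 CPM) and Nr4a1 (-2.06), and the striatal receptor gene Adora2a (-1.91).

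No marker of neighbouring regions separated the 2 sets of libraries, though some lists differed at the median. Summed over 19 hypothalamic genes, the level was 1162 CPM in cerebellum control 4, with Hcrt (orexin) at 354 CPM, Pmch at 286 and Avp at 95.5. It was 67.1 CPM in cerebellum control 1, which had more Gh, and 447, 286, 218, 212 and 163 CPM in hippocampus control NaKtide 3 and 4, cerebellum control NaKtide 1, cerebellum control 3 and cerebellum control 2. The 26 low libraries ranged from 52.4 to 425 CPM (median 191), so 5 of the 7 lay within their range. Of the 19 genes, 14 had a higher median in the 7 libraries, 13 passed the filter and none separated the sets. The median difference was 0.70, against -0.09 over all genes.

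Choroid plexus markers, led by the thyroxine carrier Ttr, summed to 5410 and 4487 CPM in hippocampus control NaKtide 4 and 3, to 1667 and 764 CPM in cerebellum control 3 and 1, and to 129, 46.4 and 27.3 CPM in the other 3. The low libraries spanned 9.42 to 5402 CPM. Dopamine neuron markers were 423, 281 and 260 CPM in cerebellum control 4, cerebellum control 2 and cerebellum control NaKtide 1, above the low range of 5.84 to 125, and 13.7 to 53.0 in the other 4. All 6 of these genes had a higher median in the 7 libraries, with a median difference of 1.36. Serotonin neuron markers were 447 CPM in cerebellum control 2, with Tph2, the rate-limiting enzyme of brain serotonin synthesis, at 275, and at most 21.3 in the other 6 (low maximum 109). Each of these lists was high in some libraries of the 7 and not in others.

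Red blood cell markers were higher at the median, 2157 against 733 CPM, with 5559 CPM in cerebellum control 1 and 853 in hippocampus control NaKtide 4, and the low range of 248 to 3357 held 6 of the 7. Meningeal fibroblast markers summed to 20.3 to 102 CPM against 11.8 to 118, and pineal markers to 1.75 to 18.6 against 1.30 to 7.67, with 18.6 in hippocampus control NaKtide 3. Sensory ganglion and Schwann cell markers summed to 6.42 to 79.9 CPM against 2.51 to 54.7. Striatum markers were lower at the median, 263 against 828 CPM, with 0 of 7 genes higher and a median difference of -1.13. Dentate gyrus and pyramidal cell markers were 30.8 to 230 against 20.2 to 548. The part these markers play in any result on Gh was not tested.

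**Figure D5:**
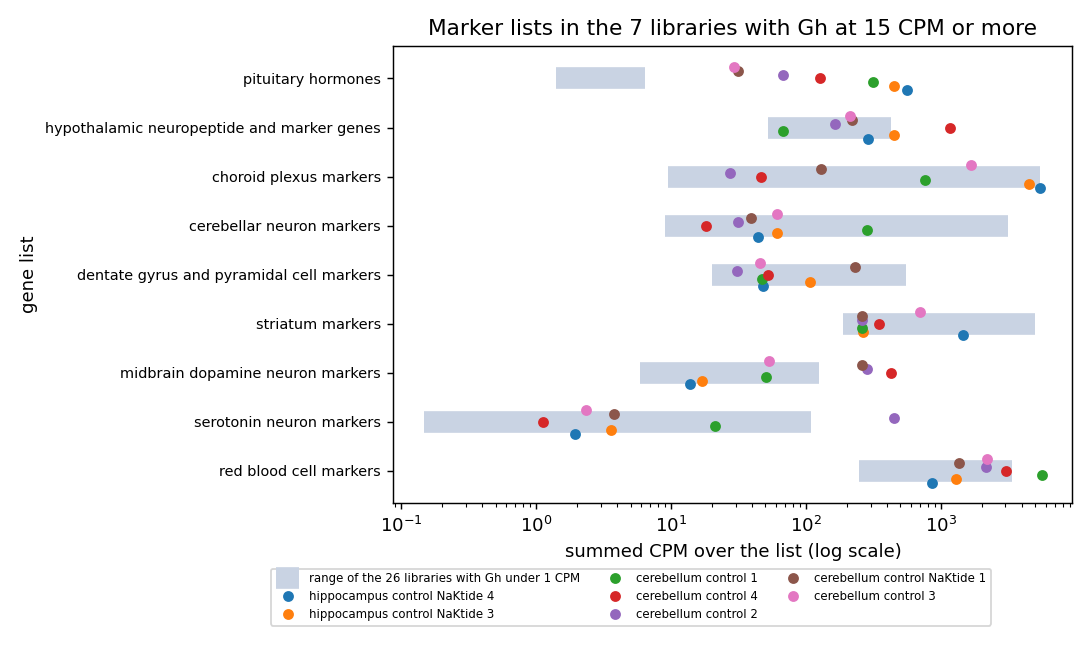
Summed level of 9 marker lists (CPM, log x axis) in each of the 7 libraries with Gh at 15 CPM or more (points, coloured by library), beside the range of the 26 libraries under 1 CPM (bars). The pituitary hormone sum includes Gh, by which the libraries were chosen, so its separation is set by the choice. In the other 8 lists at least 4 points fall inside the low range.

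The cerebellum label was not matched by cerebellar markers in most of these libraries. Gabra6, a granule neuron gene, had 19.0 CPM in cerebellum control 1 and 1.23 CPM or less in the other 4 of the 5 cerebellum-labelled libraries among the 7. This was not particular to them, since 14 of all 20 cerebellum-labelled libraries were under 1 CPM. Cerebellar markers summed to 284 CPM in cerebellum control 1 and to 18.2 to 61.2 in the other 6 libraries, against up to 3106 in a low library. Elsewhere in the series, 4 libraries had Xist at 5 CPM or more, none of them among the 7, and replicates 5 and 6 of hippocampus control were more alike in counts than any other pair within a group (mean chi-square of 2.45 per gene, 7.69 for the next pair).

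The 7 libraries were unevenly spread over the diet labels. They were 7 of the 17 control-diet libraries that fell in either set (41.2%) and 0 of 16 western-diet ones (Fisher's exact test, two-sided, p = 0.00723, adjusted p = 0.0217 over 3 labels). Within the cerebellum label the counts were 5 of 9 and 0 of 8 (Fisher's exact p = 0.0294), and within the hippocampus label 2 of 8 and 0 of 8 (Fisher's exact p = 0.467). Within NaKtide libraries Fisher's exact p was 0.200 and without NaKtide 0.0824. By region the share was 29.4% of cerebellum and 12.5% of hippocampus libraries (Fisher's exact p = 0.398, adjusted p = 0.597), and by NaKtide 18.8% with and 23.5% without (Fisher's exact p = 1). At a boundary of 30 CPM in place of 15, the diet difference was 33.3 percentage points with an adjusted p = 0.0530 by Fisher's exact test.

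Spread of Gh within groups was wide, and relative to the mean it was not particular to the groups with the most Gh. As a percentage of the mean, the SD was 117% in cerebellum control and 132% in hippocampus control NaKtide. In the other groups it ran from 77.4% (hippocampus western) to 205% (cerebellum control NaKtide). The 5 cerebellum control libraries ranged from 2.85 to 184 CPM, with 61.7 ± 72.3 (SD), and 4 of them were among the 7. Hippocampus control NaKtide had 171 ± 226 CPM (SD, n = 5) from 0.755 to 447, with 2 libraries among the 7, 2 in between and 1 low. Cerebellum control NaKtide had a median of 0.397 CPM and a maximum of 21.4. In the other 5 groups the medians were 0.186 CPM (cerebellum western), 0.278 (cerebellum western NaKtide), 0.357 (hippocampus control), 0.536 (hippocampus western NaKtide) and 0.804 (hippocampus western), with overlapping ranges. The order of groups by median Gh was therefore cerebellum control (38.9 CPM), hippocampus control NaKtide (12.0 CPM), then 6 groups under 1 CPM, and the first 2 overlapped as well.

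Contrasts between the labels, fitted over all 42 libraries and 17088 genes with edgeR's quasi-likelihood test, called few pituitary genes. Of the 26 pituitary genes, 10 could be tested. None was called between the region labels (0.0468% of all genes were called) or for NaKtide (0% of all genes by edgeR and by DESeq2, with 1613 genes at an unadjusted p under 0.05 by edgeR). For the western against the control diet, where 0.263% of all genes were called, 2 fell. Gh averaged 0.876 ± 1.29 CPM on the western diet and 56.7 ± 127 on the control diet (SD, n = 21 each), a log2 fold change of -4.17 (SE 0.83, edgeR adjusted p = 0.0248). Pomc had a log2 fold change of -1.38 (SE 0.32, edgeR adjusted p = 0.0453), and Prl one of -3.33, which did not pass (edgeR adjusted p = 0.0762).

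The diet calls lay near the threshold, while the fold changes kept their direction and most of their size when 1 library was left out, from -4.51 to -3.33 for Gh and from -1.48 to -1.16 for Pomc. With the replicate block the edgeR adjusted p was 0.0551 for Gh (log2 fold change -3.76) and 0.0796 for Pomc (-1.30), and without the count filter it was 0.0559 and 0.0664. The Gh call was lost (edgeR adjusted p of 0.0512 to 0.115) when any 1 of these was left out: cerebellum control 4, cerebellum control NaKtide 1 or 2, cerebellum western 4, hippocampus control 2 or 3, or hippocampus western 2. The Pomc call was lost in 26 of 42 such fits (edgeR adjusted p of 0.0501 to 0.107). The libraries left out in these were cerebellum control 1, 2 and 4, cerebellum control NaKtide 1, 2 and 3, cerebellum western 2, 4 and 5, and cerebellum western NaKtide 1, 2, 4 and 5. Those labelled hippocampus were control 1, 2, 3 and 4, control NaKtide 3 and 4, western 2, 3 and 4, and western NaKtide 3, 4, 5 and 6. The 7 libraries were chosen for high Gh and all carry control-diet labels, so a smaller Gh difference without them follows from the choice. In that fit the log2 fold change was -0.98 for Gh, 0.24 for Prl and -0.05 for Pomc, and no gene was called for the diet by edgeR (2553 of 18508 at an unadjusted p under 0.05).

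In the hippocampus label on control diet, Gh was 171 ± 226 CPM with NaKtide (SD, n = 5) and 0.591 ± 0.725 without (SD, n = 6). Its log2 fold change was 8.28 (SE 1.36, edgeR adjusted p = 0.00795), and it was the only gene called of all tested (0.00585%). This contrast was chosen with earlier results of these data known, and its NaKtide group holds the libraries with the most Gh. The Gh call is therefore not independent of that choice. NaKtide was not tested in the cerebellum label alone, or within either label on the western diet. In the same hippocampus contrast Prl had a log2 fold change of 7.08 and did not pass (edgeR adjusted p = 0.0561). The Gh call was lost without hippocampus control 2, 4, 5 or 6 (edgeR adjusted p of 0.0525 to 0.0588), where the log2 fold change was 8.02 to 8.22. With the hippocampus label fitted alone it was 8.30 (edgeR adjusted p = 0.0551), and with the replicate block 7.91 (edgeR adjusted p = 0.0999). Hippocampus control NaKtide 5 had 0.755 CPM, within the range of the 6 libraries without NaKtide, whose maximum was 1.89.

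In the cerebellum label the NaKtide difference ran the other way, with 4.59 ± 9.42 CPM of Gh with NaKtide and 61.7 ± 72.3 without (SD, n = 5 each). The difference of the NaKtide effect between the region labels, hippocampus minus cerebellum, was 12.29 on the log2 scale for Gh (SE 1.82, edgeR adjusted p = 0.000717), 10.76 for Prl (edgeR adjusted p = 0.00361) and 5.85 for Pomc (edgeR adjusted p = 0.000717). These 3 of the 10 pituitary genes tested stand beside 20.6% of all genes called in the same contrast. That contrast, too, was chosen with earlier results of these data known. The 7 libraries form part of 3 of the 4 groups in it. Without them no gene was called by edgeR (590 of 18508 at an unadjusted p under 0.05), a fit in which cerebellum control keeps 1 library, assumed to vary like the other groups.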

How the data were processed

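RNA-seq of 42 mouse brain libraries was examined. Per the submitters' processing notes, reads were processed with Trimmomatic 0.38, HISAT2 2.1.0 and DESeq2 1.20.0 on GRCm38. The deposited tables give counts per gene (54232 genes) and FPKM values made by the authors. FPKM was used only to compare Gh with Prl. Per the labels' protocols, the library kit keeps strand; whether counting used it is not given in the sources used here. Totals ranged from 4669374 to 9521002 counts per library.

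CPM was computed from column totals. Genes with at least 10 counts in at least 3 libraries were described. Label contrasts used edgeR 4.0.16 (TMM, quasi-likelihood, all 8 groups) with Benjamini-Hochberg adjustment over all genes, called under 0.05, and DESeq2 1.42.0 as an alternative. Fisher's exact tests and exact permutation correlations used SciPy 1.17.1. The fits were tested on simulated data. All 129 listed genes were matched by symbol. Pituitary hormones are given in every library of the 7. The 20 genes plotted as higher are those with the largest difference among separating genes, leaving out provisional symbols (Gm numbers, Rik clones), and all 5 lower genes are given. Promoters are from RefSeq (GRCm38.p6), where 6 of the 7 hormone genes matched (not Gh). The split, its members, the lists and the tests were chosen with earlier results of these data known, and no pattern here is independent support for them. Alternatives were other scalings, Gh boundaries, filters, a replicate block and leaving out libraries. Some list members are not reported here.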

Additional observations from a re-analysis of the deposited data

Results flagged for a closer look

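Gh, Prl and Pomc were each tested in the 8 groups of 5 or 6 libraries, 24 tests. In 8 of them the highest library stood apart from the others by Dixon's criterion. The lowest library was examined in the same way. For independent, normally distributed values about 1 in 20 tests would flag either the highest or the lowest. Gh and Prl varied together and some levels rest on few reads, so the 8 cannot be set against that rate. Cerebellum control NaKtide 1 stood apart in all 3 genes, with 21.4 CPM of Gh, 4.46 of Prl and 3.77 of Pomc. Hippocampus western NaKtide 2 stood apart in Gh (5.91 CPM) and Prl (2.62 CPM), and cerebellum western 5 in Gh (0.935 CPM, 7 reads) and Prl (0.801 CPM, 6 reads). Hippocampus western 5 stood apart in Pomc at 3.39 CPM. The groups with the most Gh, cerebellum control and hippocampus control NaKtide, had no such library.

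The NaKtide difference on control diet was unlike between the region labels, by 12.29 on the log2 scale for Gh, 10.76 for Prl and 5.85 for Pomc. Each was tested as an interaction with edgeR. In the same contrast 20.6% of all genes were called, and libraries chosen for high Gh form part of it.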

How the results depend on the processing

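Depth limits the pituitary transcription factors, of which 7 of 15 passed the count filter, and the gonadotropin genes, whose reads came mostly from hippocampus control NaKtide 4. Separating genes numbered 11 above and 2 below at a boundary of 10 CPM, 201 and 183 at 30 CPM, 34 below with TMM factors (25 low libraries), 14 below with them in the same 26, and 110 and 279 against control-diet libraries alone (the last 2 settings chosen after seeing the data). Leaving out each of the 7 libraries gave 50 to 178 above and 5 to 124 below. The diet difference in the share of libraries was 33.3 percentage points at 30 CPM, and, chosen after seeing the data, 25 within the hippocampus label, 37.5 with NaKtide and 44.4 without, none past the threshold by Fisher's exact test. Correlations with Gh ranged, leaving out 1 library, from 0.991 to 0.996 (Prl), 0.231 to 0.656 (Pomc), 0.700 to 0.906 (Cga), 0.195 to 0.755 (Tshb), 0.696 to 0.826 (Lhb) and 0.694 to 0.913 (Fshb). Cga passed with r = 0.796 at 10 CPM, and Lhb with r = 0.756 under TMM factors.

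Pituitary genes called for the diet numbered 0 without a count filter, with the replicate block or without the 7 libraries, 1 without the 4 Xist libraries (added after seeing the data), and 0 to 3 leaving out 1 library. For NaKtide in the hippocampus label they numbered 2 with DESeq2 or no filter, 0 with the replicate block, the hippocampus label alone, no Xist libraries or none of the 7, and 0 to 2 leaving out 1 library. For the difference between region labels they numbered 3 in every fit that left out 1 library, and 0 without the 7. Calls between region labels and for NaKtide stayed at 0 in every setting. DESeq2 also called Prl for the diet (adjusted p = 0.0119) and for NaKtide in the hippocampus label (adjusted p = 0.0164). Over all genes, DESeq2 called 85 genes between regions, 669 for the diet, 13 for NaKtide in the hippocampus label and 3982 for the difference between labels. Leaving out 1 library moved the diet calls from 0 (as without cerebellum control 4) to 2018 (without cerebellum western NaKtide 3), and the calls for the difference from 2020 (without cerebellum control NaKtide 5) to 5718 (without cerebellum control 5). The cause of these changes was not tested. Among libraries of different groups, same-numbered pairs had a median r of -0.028 (141 pairs, from -0.617 to 0.626), against -0.009 for other pairs. Most of these pairs differ in diet or NaKtide, so this median cannot show whether equal numbers mark the same animal. The replicate block moved the diet calls from 45 to 10 and those for the difference from 3524 to 2781.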
